A study of Mus musculus with 250 samples.

Results

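Complement and coagulation factors were followed through 5 tissues of mice with and without a breast tumor. The set was given as 38 gene symbols, and a gene was measured where at least 1 probe set of the array carried that symbol alone. Of the 38 genes, 36 had such a probe set (53 probe sets), among 18194 genes measured in all. C3, the central component of complement, is unnamed here among the probe sets, and C4b shares its probe set with C4a, so no value is given for either. The members were grouped by role: contact pathway, extrinsic and common pathway, fibrin and its crosslinking, anticoagulant and fibrinolytic proteins, C1q chains, lectin pathway, C2 with the alternative pathway, terminal pathway, and receptors for the anaphylatoxins.

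Coagulation is a cascade of plasma proteases that ends with thrombin cutting fibrinogen into fibrin, which factor XIII then crosslinks. Complement is a parallel protease cascade that is started by C1q, by lectins or through the alternative pathway, and that ends in a membrane pore built from C5b, C6, C7, C8 and C9. Most of these proteins are made by hepatocytes and secreted into plasma. C1q and factor XIII A are known mainly from macrophages and related cells, properdin from leukocytes, and tissue factor from many cells outside the vessel wall.

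Tumor-bearing mice were female FVB mice that carried MMTV-rtTA and TetO-NeuNT, so that doxycycline turns on the oncogenic receptor NeuNT where the MMTV promoter is active, mainly mammary epithelium. Controls were female FVB littermates with TetO-NeuNT only, and each was matched by age and cage to 1 tumor-bearing mouse. At 8 weeks of age both groups were put on drinking water with doxycycline at 2 mg/mL and sucrose at 5%, and both mice of a pair were killed when the tumor measured 1 cm. Every tissue (breast, liver, spleen, blood cells without plasma, and thymus) had 25 such pairs, 250 arrays in all; the breast samples of tumor-bearing mice were whole breast with tumor, and ages are not used here. Each value is a log2 intensity of 1 probe set, levels are compared only within 1 tissue and 1 gene, and a change is the mean over pairs of tumor-bearing minus control ± SE. In whole tissue, fewer cells of a type and less RNA per cell cannot be told apart.

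Some arrays stood apart from their own tissue. The mean correlation of 12 arrays (10 control, 2 tumor-bearing) with the other arrays of their tissue and group lay far below the rest, and without them 22 breast pairs, 23 liver pairs, 23 spleen pairs, 24 blood pairs and 22 thymus pairs are left. The farthest was the liver control of pair 9, with a mean correlation of 0.335 against a liver median of 0.962. Of the 12, 5 arrays were closer to another tissue than to their own: 2 spleen controls and 1 thymus control were closest to breast, 1 thymus control to spleen, and 1 tumor-bearing spleen to thymus. Results are given with all pairs and without these 12 arrays. The Erbb2 signal in breast averaged 8.41 ± 0.36 in tumor-bearing mice, against 7.13 ± 0.59 in controls (SD, n = 25 each), and it was higher in the tumor-bearing mouse of 23 of 25 pairs. The 2 exceptions, breast pairs 1 and 9, are among the pairs left out.

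Calls required an adjusted p below 0.05 (limma with the pair as a block, Benjamini-Hochberg over all genes of the tissue), and "rose" and "fell" refer to calls with all 25 pairs. In liver 10 of 36 members rose and 0 fell (23 and 0 at an unadjusted p under 0.05), against 7.89% of all genes higher and 2.28% lower. Spleen had 8 members higher and 3 lower, against 22.4% and 18.3% of all genes. Blood had 1 higher and 0 lower, against 8.66% and 4.27%, and at an unadjusted p under 0.05 it had 1 and 8. Breast had 11 higher and 15 lower, against 30.0% and 32.3%. Thymus had 0 and 0 (8 and 0 unadjusted), against 0.011% and 0.0%. The share of members called higher lay above its background in liver and near it in breast and spleen.

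In liver the count without the outlying arrays was 24 higher and 2 lower, against 13.7% and 16.6% of all genes. The other tissues had 13 higher and 7 lower in spleen (29.5% and 26.6% of all genes), 1 and 0 in blood (8.88% and 4.99%), 11 and 14 in breast (31.8% and 35.8%), and 0 and 0 in thymus (0.0824% and 0.0%). The median change of the members was 0.48 in liver against 0.01 over all genes, and 0.23 against -0.01 without the outlying arrays. In the other tissues the members' medians with all pairs lay between -0.22 in blood and 0.15 in thymus. The liver arrays left out are the controls of pairs 3 and 9.

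**Figure D1:**
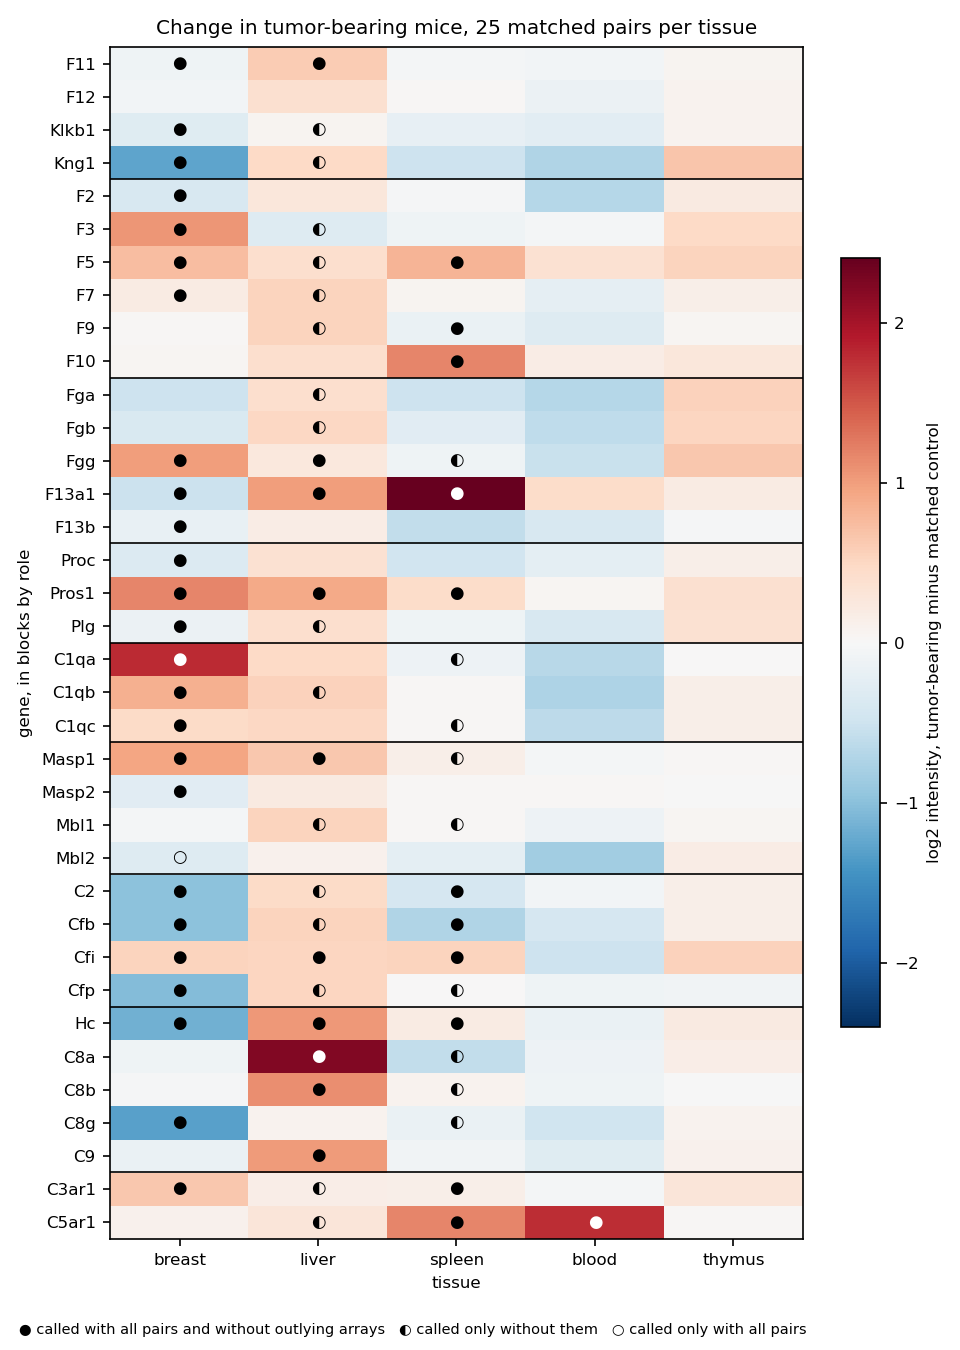
Change of the 36 measured genes (rows, in blocks by role) in 5 tissues (columns), as log2 intensity of tumor-bearing minus matched control over 25 pairs; symbols mark calls at an adjusted p under 0.05 with all pairs, without outlying arrays, or both. The deepest rises are C8a in liver (2.23), F13a1 in spleen (2.40), C1qa in breast (1.80) and C5ar1 in blood (1.78), and no cell is marked in thymus.

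The terminal pathway in liver held the largest liver change of the set. C8a, which encodes the alpha chain of C8, had a lowest, median and highest value of 12.68, 13.47 and 13.89 in tumor-bearing livers, against 5.56, 11.37 and 12.31 in control livers. The groups did not overlap, and C8a was higher in 25 of 25 pairs (a 4.68-fold rise, 2.23 ± 0.26, adjusted p = 1.5e-07). The C8a controls without the outlying arrays began at 10.84 and the rise was 3.84-fold (1.94 ± 0.11, adjusted p = 6.23e-14). C8a was also the only member of the 36 whose liver groups did not overlap. How many of all genes had groups without overlap was not counted, in liver or in any other tissue.

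C8b, the beta chain of C8, ran between 10.35 and 12.03 around a median of 11.65 in tumor-bearing livers, against 6.07 to 11.34 around 10.48 in control livers. It rose 2.16-fold (1.11 ± 0.22, 24 of 25 pairs, adjusted p = 0.000462) with overlapping groups, and its change was 0.89 ± 0.11 without the outlying arrays. C9, the subunit that polymerises into the pore, lay between 13.11 and 13.78 in tumor-bearing livers, against 5.66 to 13.35 in controls. It rose 2.04-fold (1.03 ± 0.30, 24 pairs, adjusted p = 0.0153), and 1.64-fold (0.71 ± 0.06) without the outlying arrays. Hc, which encodes C5, lay between 11.56 and 12.66 in tumor-bearing livers, against 5.76 to 11.84 in controls, and it rose 2.06-fold (1.04 ± 0.25, 24 pairs, adjusted p = 0.00253), or 1.70-fold (0.76 ± 0.06) without the outlying arrays. FVB mice are known to carry an Hc allele that gives no functional C5, so this transcript does not report C5 activity.

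C8g, the lipocalin chain that completes the C8 protein, did not follow the other chains. It lay between 12.57 and 13.53 with a median of 13.40 in tumor-bearing livers, against 9.38 to 13.54 with a median of 13.45 in control livers, so the ranges overlapped almost wholly. Its change was 0.09 ± 0.17 with 6 of 25 pairs higher (adjusted p = 0.776), and -0.10 ± 0.04 without the outlying arrays (4 of 23 pairs higher, adjusted p = 0.109). C8a and C8b are neighbouring genes on mouse chromosome 4, and C8g is on chromosome 2.

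**Figure D2:**
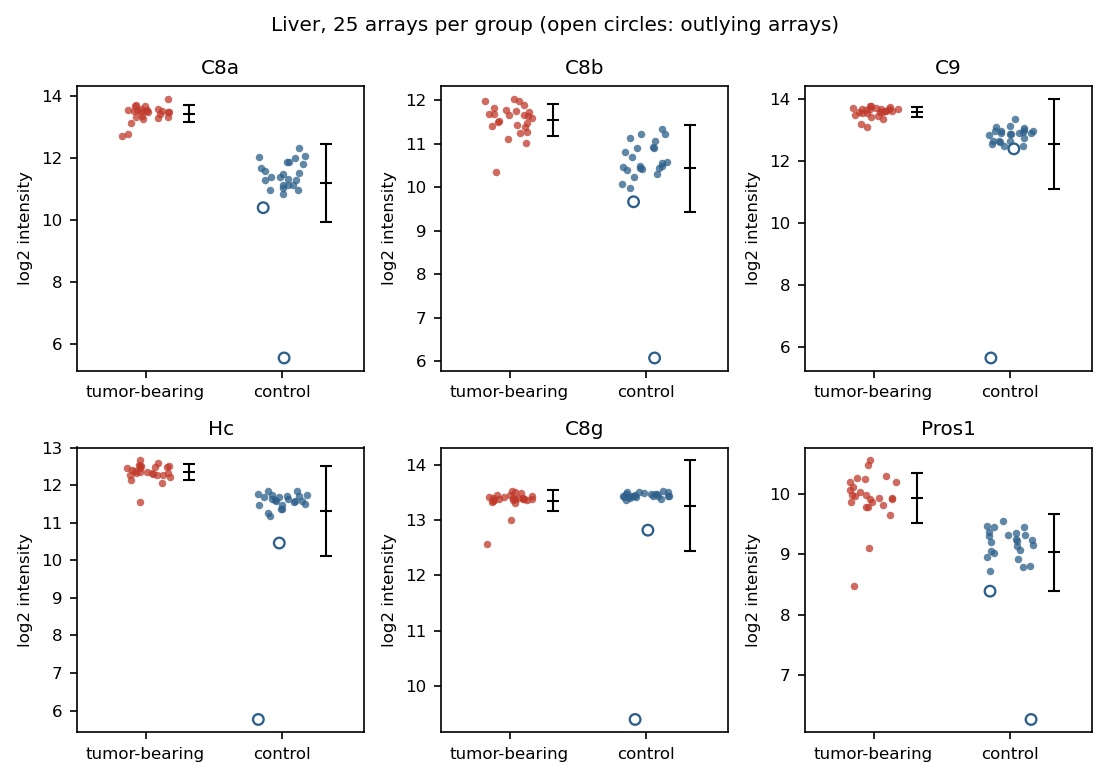
Log2 intensity (vertical axes) of C8a, C8b, C9, Hc, C8g and Pros1 in 25 tumor-bearing and 25 control livers, with the mean and SD as bars and outlying arrays as open circles. All tumor-bearing livers lie above all controls for C8a (12.68 and above, against 12.31 and below), whereas the groups overlap for C8g, and the lowest control of most panels is an open circle.

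The start regions of these 5 genes are shown because 4 of them rose in liver and C8g did not; they were chosen after their values were seen. Each runs from 250 bases before to 50 bases after a start listed for the gene in RefSeq (GRCm38.p6; the first listed where there are several), written 5′ to 3′ on the gene's strand. That start is the outermost end of the gene for C8b and C9, but it lies 58 bases inside it for C8g, 89 for C8a and 7094 for Hc, so the Hc region lies around an internal start. Capitals mark matches to TTCNNNGAA, a form bound by STAT factors, or to TTNNGNAA, a loose form of the C/EBP site, both of which transmit the acute phase response in hepatocytes.
C8a (chr4:104876349-104876648, minus strand): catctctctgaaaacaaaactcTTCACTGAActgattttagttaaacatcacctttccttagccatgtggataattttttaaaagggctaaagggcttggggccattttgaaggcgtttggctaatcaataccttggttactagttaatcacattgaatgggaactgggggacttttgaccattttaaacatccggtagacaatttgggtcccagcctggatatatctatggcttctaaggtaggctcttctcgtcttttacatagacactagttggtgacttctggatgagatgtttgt
C8b (chr4:104766067-104766366, plus strand): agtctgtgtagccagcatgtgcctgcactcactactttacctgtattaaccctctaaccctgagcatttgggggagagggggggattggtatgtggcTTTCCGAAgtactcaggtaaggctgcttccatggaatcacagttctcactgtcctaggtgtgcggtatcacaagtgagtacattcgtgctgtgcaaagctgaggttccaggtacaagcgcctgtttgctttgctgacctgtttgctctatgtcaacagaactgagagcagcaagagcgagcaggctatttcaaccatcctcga
C9 (chr15:6445096-6445395, plus strand): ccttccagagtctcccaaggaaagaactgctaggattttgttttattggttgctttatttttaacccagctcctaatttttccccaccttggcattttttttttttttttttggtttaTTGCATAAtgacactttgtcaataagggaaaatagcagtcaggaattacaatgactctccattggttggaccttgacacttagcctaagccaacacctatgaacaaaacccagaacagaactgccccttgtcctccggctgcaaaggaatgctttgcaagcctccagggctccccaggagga
Hc (chr2:35061363-35061662, minus strand): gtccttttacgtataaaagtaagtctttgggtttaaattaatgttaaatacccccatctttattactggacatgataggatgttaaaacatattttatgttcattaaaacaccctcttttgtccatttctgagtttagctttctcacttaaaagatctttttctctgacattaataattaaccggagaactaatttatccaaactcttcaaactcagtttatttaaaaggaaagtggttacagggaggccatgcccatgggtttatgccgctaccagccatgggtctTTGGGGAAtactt
C8g (chr2:25501670-25501969, minus strand): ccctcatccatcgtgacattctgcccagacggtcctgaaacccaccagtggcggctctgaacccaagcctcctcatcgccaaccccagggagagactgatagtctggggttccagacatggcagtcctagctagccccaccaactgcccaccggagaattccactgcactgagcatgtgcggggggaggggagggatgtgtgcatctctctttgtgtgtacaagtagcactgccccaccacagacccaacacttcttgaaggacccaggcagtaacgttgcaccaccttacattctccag

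C8a held 1 match to TTCNNNGAA (TTCACTGAA, positions -228 to -220 from the start), and C8b, C9 and Hc each held 1 match to TTNNGNAA. C8g held neither. Of the members, 29 had a start region in the table (11 with a start inside the outermost end of the gene), and 20.7% of these held TTCNNNGAA against 8.3% of all 32851 start regions, while 51.7% against 40.7% held TTNNGNAA. GTTAAT, a core of the HNF1 site, was in 27.6% of the members' regions (C8a, C8b and Hc among them) against 7.1% of all, and CAAAGTCCA, a form of the HNF4 site, was in 0 of 29 against 0.475%. Both strands were searched for these 4 motifs, the first 2 motifs can overlap, and a match describes letters only. No start region was in the table for C2, C4b, C1qa, Cfb, Cfi, Kng1, Masp1, Plg and Proc.

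Over the 23 liver pairs without outlying arrays the changes of the chains that rose moved together from pair to pair. The changes of C8a and C8b had Pearson r = 0.90 and Spearman rho = 0.84 (permutation p = 1e-05 for each, which is the smallest possible here; adjusted p = 1.5e-05 and 2e-05 over 18 relations), and r was 0.79 without the 2 pairs farthest from the median of C8a. C9 and Hc gave the weakest relation of the 18, with r = 0.60 (permutation p = 0.00319, adjusted p = 0.00319) and rho = 0.39 (permutation p = 0.0714, adjusted p = 0.0714), and r = 0.38 without its 2 farthest pairs. Within the earlier and the later series of sample IDs, C8a and C8b had r = 0.97 (8 pairs) and 0.85 (15 pairs), while C9 and Hc had 0.94 and 0.30. The 18 relations were chosen after the changes were seen, and the points of each share their arrays.

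Fibrinogen in liver moved little, but evenly over the pairs. Fgg, the gamma chain, lay between 14.27 and 14.69 with a median of 14.62 in tumor-bearing livers, against 13.20 to 14.48 with a median of 14.41 in controls. It rose 1.19-fold (0.25 ± 0.05, 23 of 25 pairs, adjusted p = 0.00523), and 1.14-fold without the outlying arrays. Fga, the alpha chain, had a change of 0.41 ± 0.15 (25 of 25 pairs higher, adjusted p = 0.0696), and without the outlying arrays 0.26 ± 0.02 (23 of 23 pairs, adjusted p = 3.3e-07). Fgb, the beta chain, had 0.49 ± 0.19 (24 pairs, adjusted p = 0.093) and 0.29 ± 0.04 (22 of 23 pairs, adjusted p = 3.27e-06). The 3 genes lie side by side on chromosome 3, and their changes were related with r between 0.79 (Fga with Fgg; permutation p = 1e-05, adjusted p = 1.5e-05) and 0.92 (Fgb with Fgg; the same p values), each over 23 pairs. Their rho lay between 0.76 and 0.87 (adjusted permutation p of 8.18e-05 or less), and r without the 2 farthest pairs between 0.72 and 0.78.

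Pros1, which encodes protein S, the cofactor of activated protein C, lay between 8.48 and 10.55 with a median of 9.97 in tumor-bearing livers, against 6.27 to 9.55 with a median of 9.20 in controls. It rose 1.87-fold (0.90 ± 0.15, 24 of 25 pairs, adjusted p = 6.94e-05). Proc, the protein C gene itself, had a change of 0.36 ± 0.33 (adjusted p = 0.533), and 0.02 ± 0.05 without the outlying arrays. Plg, the plasminogen gene, had 0.41 ± 0.27 (adjusted p = 0.399), and 0.12 ± 0.03 without them (adjusted p = 0.00836).

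Other members that rose in liver were Masp1, a protease of the lectin pathway (0.65 ± 0.13, 24 pairs, adjusted p = 0.000508), F11, factor XI of the contact pathway (0.60 ± 0.20, 23 pairs, adjusted p = 0.0447), and Cfi, factor I, the protease that inactivates C3b and C4b (0.51 ± 0.16, 24 pairs, adjusted p = 0.0274). Without the outlying arrays these changes were 0.49, 0.36 and 0.34, all called. The 5 probe sets of Masp1 disagreed, with liver changes between 0.23 ± 0.22 and 0.65 ± 0.13 with all pairs. Without the outlying arrays the brightest of them in liver, which was not used, had -0.02 ± 0.05. The others then had changes between 0.30 and 0.52. With all pairs the liver call was lost where probe sets that can match several transcripts were left out (adjusted p = 0.559). F13a1, the A chain of factor XIII, lay between 3.99 and 7.30 in tumor-bearing livers, against 4.03 to 6.85 in controls, and rose 2.00-fold (1.00 ± 0.20, 23 pairs, adjusted p = 0.000442). The F13a1 probe set was dim in liver, with an average under the liver median of all genes.

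The remaining 26 members did not pass the test in liver with all pairs. The outlying controls held the lowest values of many of them: F9 reached 5.26 among all control livers and 12.10 without these 2 arrays. Without these 2 pairs, the vitamin K-dependent F7 (0.22 ± 0.06, adjusted p = 0.00455) and F9 (0.20 ± 0.04, adjusted p = 0.000957), the cofactor gene F5 (0.15 ± 0.05, adjusted p = 0.0309), the kininogen gene Kng1 (0.23 ± 0.04, adjusted p = 3.28e-05), and Cfb (0.29 ± 0.06, adjusted p = 0.000307), C2 (0.24 ± 0.05, adjusted p = 0.000314) and Cfp (0.30 ± 0.09, adjusted p = 0.00945) were called higher. Mbl1, C1qb, C3ar1, C5ar1, Fga, Fgb and Plg completed the 14 members called only then. On probe sets not used, Cfp had 0.01 ± 0.06, and C1qb had 0.08 ± 0.10 and 0.16 ± 0.10. Those of F5, Kng1, C2, C3ar1 and C5ar1 had positive changes too, between 0.12 and 0.49. F2, the prothrombin gene (0.05 ± 0.03), F10 (0.15 ± 0.06), F12 (0.09 ± 0.06), F13b (0.00 ± 0.03), Masp2 (0.01 ± 0.06) and Mbl2 (-0.08 ± 0.04) were not called either way, nor were C1qa and C1qc. This holds for the probe sets used. The others had 0.26 ± 0.05 and 0.32 ± 0.05 for F10 and 0.13 ± 0.04 for Masp2. Klkb1, plasma prekallikrein, changed sign: it had 0.07 ± 0.28 with all pairs, although only 3 of 25 pairs were higher, and -0.24 ± 0.05 (1 of 23 pairs higher, adjusted p = 0.000856) without the outlying arrays. F3, tissue factor, had -0.31 ± 0.18 (adjusted p = 0.321) and -0.46 ± 0.16 (adjusted p = 0.0165).

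**Figure D3:**
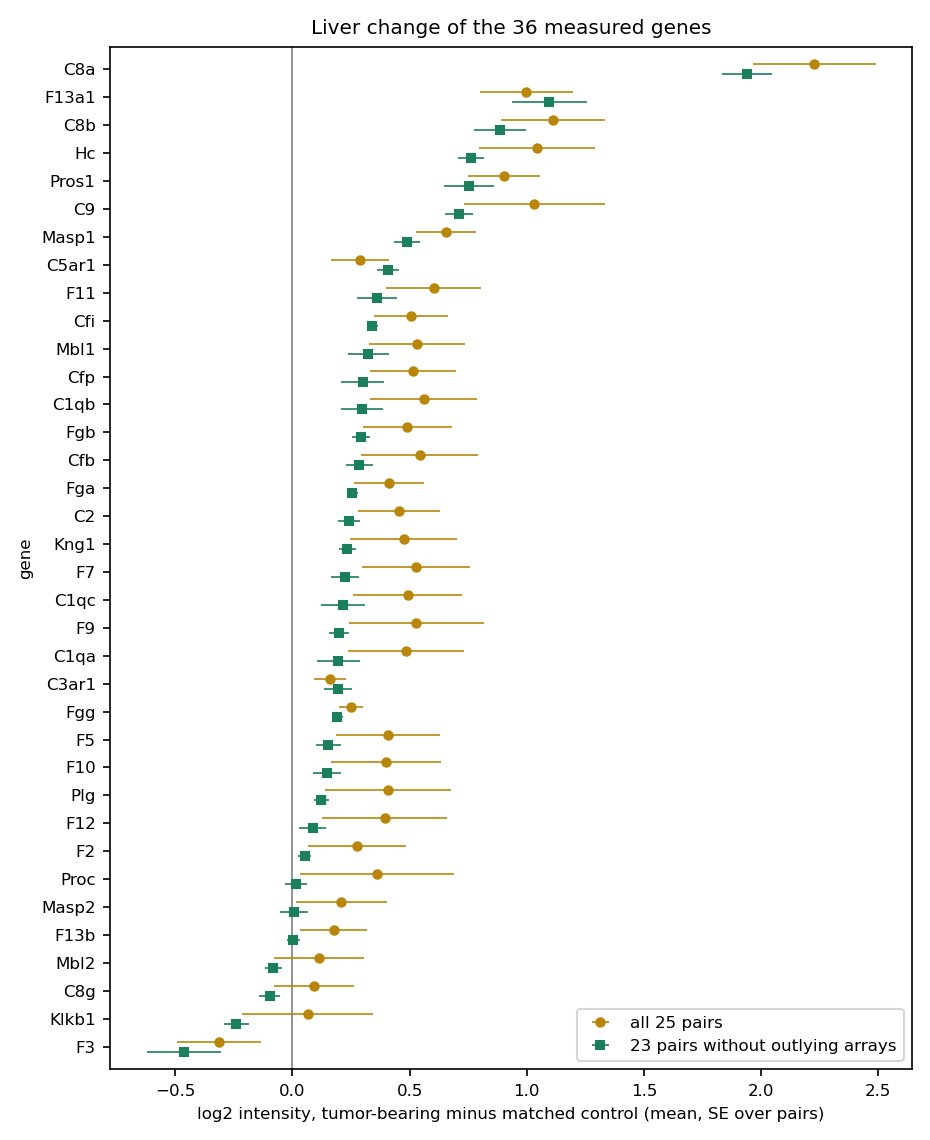
Liver change of the 36 measured genes (horizontal axis, log2 intensity of tumor-bearing minus matched control, mean and SE over pairs), with all 25 pairs and with the 23 pairs without outlying arrays. Most circles lie right of their squares with longer bars; C8a keeps the largest change either way (2.23 and 1.94), and Klkb1 lies at 0.07 and at -0.24.

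The liver result depended on which pairs were used. In the 10 pairs of the earlier ID series, which hold both outlying livers, 0 members were called higher and 0 lower (8 and 0 at an unadjusted p under 0.05), and C8a had 2.48 (adjusted p = 0.111). In its 8 pairs without outlying arrays 7 members were called higher, with C8a at 1.72 (adjusted p = 0.00173), Hc at 0.64 and C9 at 0.75. In the 15 pairs of the later series 26 were called higher and 1 lower, with C8a at 2.06 (adjusted p = 5.08e-10). The share of all genes called was not taken for these subsets, so their counts have no background.

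Markers of other cells moved in the same livers. Of 12 hepatocyte markers 0 rose and 0 fell (median change 0.05), and 1 was higher and 7 lower without the outlying arrays. Their summed level ran between 17.4 and 17.9 in tumor-bearing livers and between 16.5 and 17.9 in controls. All 9 measured neutrophil markers rose (median change 3.001), with a summed level of 10.7 to 15.2 in tumor-bearing livers against 8.5 to 9.6 in controls, and S100a8 had 11.71 ± 1.17 against 6.46 ± 0.73 (SD, n = 25 each). Of 7 fibroblast markers 5 rose (median change 0.82), of 12 macrophage markers 3 (0.43) and of 8 platelet and megakaryocyte markers 4 (0.37), and without the outlying arrays 6, 5 and 5 were higher, with medians of 0.64, 0.21 and 0.36. Their part in the members' changes was not tested.

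Genes around the set were read from lists of the same pathways. Of 24 other complement genes measured in liver 8 rose and 0 fell (16 higher and 1 lower without the outlying arrays), among them Itgam, a chain of complement receptor 3 (0.94 ± 0.11), Cd93 (0.73 ± 0.12), Colec11, a collectin (0.98 ± 0.21), Susd4 (0.48 ± 0.11) and Vtn, vitronectin (0.31 ± 0.07). Of 26 other coagulation and fibrinolysis genes 8 rose and 0 fell (14 were higher and 0 lower once the outlying arrays were left out), among them Gas6, a protein S relative (1.77 ± 0.18), F2r, a thrombin receptor (1.20 ± 0.21), Thbd, thrombomodulin (0.96 ± 0.17), Tfpi, the tissue factor pathway inhibitor (0.51 ± 0.10), and A2m (0.71 ± 0.16). Of 20 acute phase genes 16 rose and 0 fell (all 20 were higher once the outlying arrays were left out), with a median change of 1.05. Its members with the smallest p were Lcn2 (4.17 ± 0.21), Socs3 (3.02 ± 0.18), Saa2 (3.54 ± 0.24), Orm2 (3.17 ± 0.23) and Saa1 (2.98 ± 0.22), all higher in 25 of 25 pairs.

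In spleen a few clotting factors rose, and the classical and alternative pathway proteases C2 and Cfb fell. F13a1 had a lowest, median and highest value of 9.83, 10.70 and 11.82 in tumor-bearing spleens, against 6.85, 8.56 and 9.42 in control spleens. The groups did not overlap, and F13a1 was higher in 25 of 25 pairs (a 5.29-fold rise, 2.40 ± 0.19, adjusted p = 1.77e-10), or 4.69-fold (2.23 ± 0.16) without the outlying arrays. F10, the protease that makes thrombin, lay between 5.34 and 9.84 with a median of 8.78 in tumor-bearing spleens, against 5.49 to 8.35 with a median of 7.81 in controls. It rose 2.25-fold (1.17 ± 0.15, 24 pairs, adjusted p = 3.25e-07), and the groups did not overlap once the outlying arrays were left out (8.45 and above, against 8.35 and below). F5, the cofactor of factor X, lay between 7.47 and 11.12 with a median of 10.38 in tumor-bearing spleens, against 6.67 to 10.33 with a median of 9.68 in controls, and it rose 1.75-fold (0.81 ± 0.14, 23 pairs, adjusted p = 1.24e-05).

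The changes of these 3 genes went together over the 23 spleen pairs without outlying arrays. F13a1 and F10 had r = 0.93 and rho = 0.95, F13a1 and F5 had r = 0.90 and rho = 0.87, and F10 and F5 had r = 0.88 and rho = 0.89 (permutation p = 1e-05 for all, adjusted p = 1.5e-05 for r and 2e-05 for rho). Without the 2 farthest pairs r stayed between 0.84 and 0.91, and within the 2 ID series it lay between 0.87 and 0.94. The 3 probe sets of F10 all had positive spleen changes (0.68, 0.73 and 1.17), as did both of F5 (0.85 and 0.81).

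C5ar1, the receptor for C5a on neutrophils and monocytes, lay between 5.57 and 8.83 with a median of 7.10 in tumor-bearing spleens, against 5.66 to 6.33 with a median of 6.05 in controls. It rose 2.26-fold (1.17 ± 0.14, 24 pairs, adjusted p = 1.2e-07), its other probe set had 2.50 ± 0.19, and the lowest tumor-bearing value was an outlying array. C3ar1, the C3a receptor, had 0.14 ± 0.05 (18 pairs, adjusted p = 0.0433). Pros1 rose by 0.44 ± 0.08, Cfi by 0.54 ± 0.11 and Hc by 0.21 ± 0.05. C5ar1, C3ar1, Cfi and Hc were dim in spleen, with averages under the spleen median of all genes.

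Cfb, factor B of the alternative pathway, lay between 8.12 and 8.76 with a median of 8.56 in tumor-bearing spleens, against 8.61 to 11.33 with a median of 9.04 in controls. It was lower in the tumor-bearing mouse of 25 of 25 pairs (-0.72 ± 0.13, adjusted p = 4.08e-05, and -0.54 ± 0.06 without the outlying arrays), although the ranges touched. C2, its counterpart in the classical and lectin pathways, lay between 8.40 and 9.28 in tumor-bearing spleens, against 8.73 to 10.80 in controls, and it fell (-0.40 ± 0.09, lower in 21 pairs, adjusted p = 0.000822), on all 3 of its probe sets (-0.55, -0.40 and -0.49). F9, dim in spleen, had -0.16 ± 0.05 (adjusted p = 0.00746). Cfp, which encodes properdin, the stabiliser of the alternative pathway convertase, had 0.02 ± 0.26 (adjusted p = 0.967) and, without the outlying arrays, -0.34 ± 0.05 (higher in 2 of 23 pairs, adjusted p = 3.29e-07). Likewise C1qa had -0.12 ± 0.12 and then -0.23 ± 0.06 (adjusted p = 0.00215), and C1qc 0.03 ± 0.13 and then -0.14 ± 0.05 (adjusted p = 0.018).

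**Figure D4:**
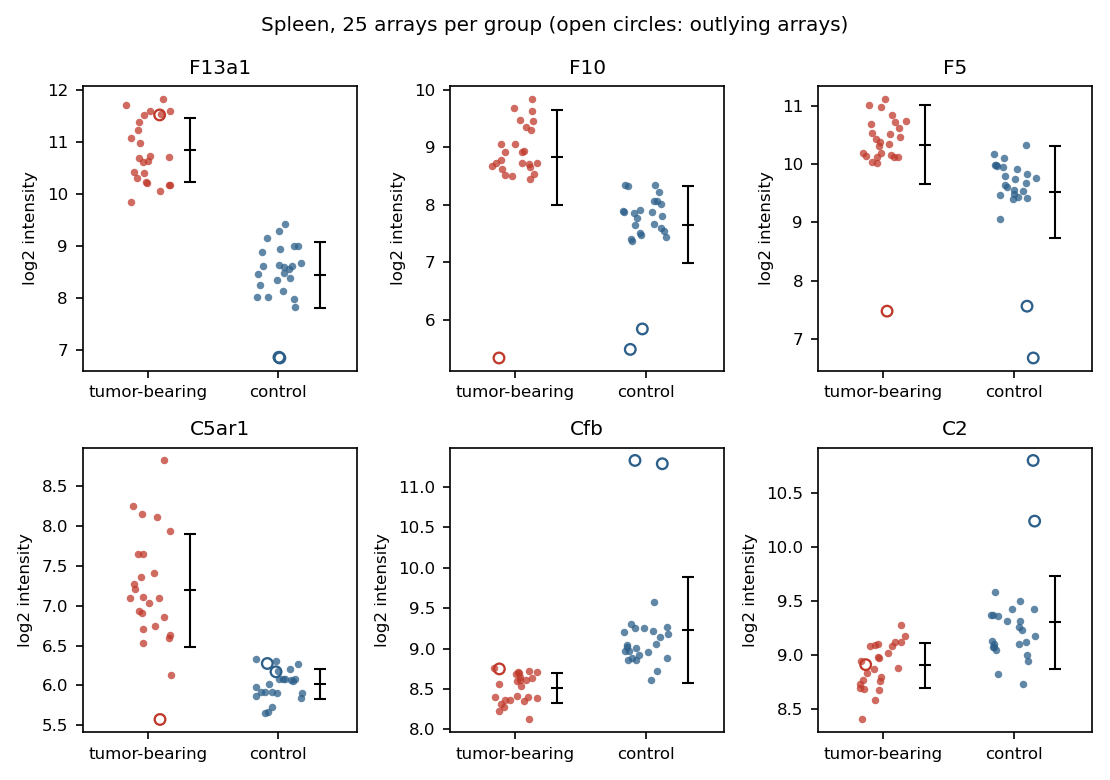
Log2 intensity (vertical axes) of F13a1, F10, F5, C5ar1, Cfb and C2 in 25 tumor-bearing and 25 control spleens, with the mean and SD as bars and outlying arrays as open circles. The tumor-bearing spleens lie above the controls for F13a1 (9.83 and above, against 9.42 and below) and mostly below them for Cfb and C2, and the open circles include the highest controls for Cfb and C2.

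The outlying spleen arrays also carried high values of liver-type genes. F13b, the B chain of factor XIII, reached 12.18 in a control spleen, against 4.59 at most in tumor-bearing spleens, and without the outlying arrays the highest control was 4.51. The summed level of the 12 hepatocyte markers ran between 8.9 and 11.6 in tumor-bearing spleens and between 8.8 and 13.6 in controls, and 26 of the 36 members averaged under the spleen median of all genes. All 9 neutrophil markers rose in spleen (median change 2.80), as did 7 of 8 platelet and megakaryocyte markers (0.57), while of 12 macrophage markers 3 rose and 2 fell (3 higher and 6 lower with the outlying arrays left out). Pancreatic acinar markers had a summed level of 8.8 to 17.1 in tumor-bearing spleens and 9.6 to 17.5 in controls. Without the outlying arrays all 6 T cell and all 5 B cell markers were lower (median changes -0.89 and -0.83), and their part in the members' changes was not tested.

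Of 24 other complement genes 6 rose and 2 fell in spleen (6 were higher and 5 lower once the outlying arrays were left out), with Itgam at 2.18 ± 0.17, the ficolin gene Fcnb at 2.49 ± 0.24, Cd93 at 0.52 ± 0.07, the complement inhibitor Cd59a at 0.69 ± 0.12 and clusterin, Clu, at -0.34 ± 0.05. Of 26 other coagulation genes 5 rose and 5 fell (8 were higher and 5 lower once the outlying arrays were left out), with the thrombin receptors F2rl3 and F2rl2 at 0.70 ± 0.09 and 0.52 ± 0.11, F8 at 0.52 ± 0.08, Tfpi at 0.71 ± 0.13 and Procr, the protein C receptor, at -0.30 ± 0.07. Of 20 acute phase genes 9 rose and 2 fell (9 higher and 3 lower with the outlying arrays left out), with Hp at 3.52 ± 0.21, Steap4 at 2.49 ± 0.16, Cd14 at 1.02 ± 0.08, Itih3 at 1.45 ± 0.12 and Orm1 at 2.38 ± 0.20.

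Whether changes differed between liver and spleen was tested within the linked pairs, with the mice linked by sample ID digits, a link the labels do not state. The difference passed for 11 members more positive in liver and 3 more positive in spleen, against 10.4% and 9.15% of all genes. Without the outlying arrays (21 pairs) there were 17 and 7, against 19.6% and 23.8%. C8a had the largest difference, 2.82 ± 0.40 (25 of 25 pairs, adjusted p = 2.15e-06; 2.07 ± 0.13 without the outlying arrays). C9 (1.11 ± 0.29), C8b (1.04 ± 0.22), Hc (0.84 ± 0.24), Cfb (1.26 ± 0.29) and C2 (0.85 ± 0.20) also passed, and without the outlying arrays these 5 had smaller differences, of 0.76, 0.77, 0.52, 0.82 and 0.51, all still called. F13a1 (-1.40 ± 0.22), C5ar1 (-0.89 ± 0.17) and F10 (-0.77 ± 0.29) were more positive in spleen, and that of F10 was not called on the mean of its 3 probe sets (-0.35, adjusted p = 0.276).

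In blood cells C5ar1 was the 1 member that rose, on both of its probe sets. It lay between 6.36 and 9.10 with a median of 8.10 in tumor-bearing mice, against 5.13 to 7.25 with a median of 6.25 in controls. The rise was 3.43-fold (1.78 ± 0.18, 25 of 25 pairs, adjusted p = 1.8e-08), with 2.31 ± 0.21 on the other probe set. The neutrophil markers moved with it: 6 of 9 rose (median change 3.05), and their summed level ran between 13.92 and 16.03 in tumor-bearing blood against 8.8 to 13.3 in control blood, which was not tested as a source. C3ar1 had -0.05 ± 0.16 (adjusted p = 0.902).

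The other 35 blood members did not pass, and 30 of the 36 had negative changes. F13a1, which platelets and monocytes carry, had 10.47 as its median in tumor-bearing blood and 10.30 in control blood (0.44 ± 0.25, adjusted p = 0.278), and F5 had 0.36 ± 0.29. The C1q chains had -0.67 ± 0.24 (C1qa, adjusted p = 0.0526), -0.74 ± 0.27 (C1qb, adjusted p = 0.0633) and -0.64 ± 0.26 (C1qc, adjusted p = 0.105). In the 15 pairs of the later series alone 5 members were called lower, with C1qa at -0.88 (adjusted p = 0.0125). The share of all genes called was not taken there. Liver-type members varied widely in blood: Fga ran between 3.504, the floor, and 10.04 in tumor-bearing mice, against 3.504 to 10.49 in controls. The hepatocyte markers varied alike, with summed levels of 8.7 to 13.7 and 8.6 to 14.9 in the same order, and their part was not tested. All 5 B cell markers (median change -1.01) and 3 of 6 T cell markers fell in the same blood samples, and their part was not tested either. Of other complement genes 4 of 24 rose and 1 fell, with Itgax at 1.18 ± 0.14, Cd59a at 0.55 ± 0.10, Itgam at 0.93 ± 0.27, Cr1l at 0.41 ± 0.13 and Cr2, a B cell complement receptor, at -0.78 ± 0.12. Of other coagulation genes 1 of 26 rose, Plaur, the urokinase receptor (0.60 ± 0.14). Of acute phase genes 6 of 20 rose, with Steap4 at 4.77 ± 0.26, Lcn2 at 4.83 ± 0.40, Socs3 at 2.70 ± 0.23, Hp at 2.86 ± 0.25 and Cd14 at 1.14 ± 0.23.

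In breast all 3 C1q chains rose and the alternative pathway genes Cfb and Cfp fell. C1qa lay between 9.09 and 12.38 with a median of 11.46 in tumor-bearing mice, against 7.21 to 11.96 with a median of 9.30 in controls. It rose 3.48-fold (1.80 ± 0.28, 22 of 25 pairs, adjusted p = 2.13e-06), and C1qb (0.86 ± 0.17, adjusted p = 5.64e-05) and C1qc (0.45 ± 0.15, adjusted p = 0.00772) rose less. The 3 chains assemble into 1 protein and lie side by side on chromosome 4. Of 12 macrophage markers 3 rose and 5 fell in the same tissue (1 higher and 6 lower without the outlying arrays), with a summed level of 12.6 to 13.9 in tumor-bearing mice and 12.3 to 14.2 in controls. C3ar1 rose too (0.65 ± 0.14), on all 3 of its probe sets.

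Among clotting genes in breast, Pros1 lay between 8.40 and 11.09 with a median of 10.24 in tumor-bearing mice, against 8.17 to 10.32 with a median of 9.15 in controls. It rose 2.26-fold (1.18 ± 0.14, 23 pairs, adjusted p = 3.97e-08), and without the outlying arrays its groups did not overlap (9.94 and above, against 9.47 and below). F3, tissue factor, the trigger of the extrinsic pathway, lay between 9.28 and 11.59 with a median of 10.52 in tumor-bearing mice, against 8.32 to 10.30 with a median of 9.46 in controls, and rose 2.08-fold (1.06 ± 0.12, 23 pairs, adjusted p = 2.21e-08). F5 (0.74 ± 0.19) and F7 (0.21 ± 0.08, adjusted p = 0.0323) rose as well, and each was dim here. Fgg rose 2.00-fold (1.00 ± 0.27, 21 pairs, adjusted p = 0.00138), with 4.83 to 9.80 in tumor-bearing mice and 4.14 to 9.81 in controls. Its partner chains did not pass: Fga had -0.49 ± 0.28 (adjusted p = 0.119) and Fgb -0.36 ± 0.27 (adjusted p = 0.23). Masp1 rose by 0.94 ± 0.22, but its 5 probe sets ran from -0.53 to 1.18 and the call was lost without probe sets that can match several transcripts (0.06, adjusted p = 0.406). Cfi, also dim here, rose by 0.53 ± 0.13.

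All 5 terminal pathway members and Kng1 averaged under the breast median of all genes. C8g had the most negative change in breast. It lay between 4.52 and 6.06 with a median of 5.27 in tumor-bearing mice, against 5.24 to 7.42 with a median of 6.59 in controls, and fell (-1.30 ± 0.13, lower in 24 of 25 pairs, adjusted p = 8.92e-10). Its groups did not overlap without the outlying arrays (5.71 and below, against 6.12 and above). Hc lay between 4.24 and 5.89 in tumor-bearing mice, against 4.99 to 7.25 in controls, and fell (-1.15 ± 0.16, lower in 24 pairs, adjusted p = 1.91e-07), whereas C8a, C8b and C9 had -0.10 ± 0.10, -0.02 ± 0.04 and -0.16 ± 0.11 and did not pass. Cfp (-1.05 ± 0.19), Cfb (-0.99 ± 0.18), C2 (-0.99 ± 0.17) and Kng1 (-1.27 ± 0.28, with -0.13 ± 0.12 on its other probe set) fell, each with an adjusted p of 0.000216 or less. F13a1 fell by 0.52 ± 0.19 (adjusted p = 0.0164), the opposite of its direction in liver and spleen.

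The other members that fell in breast were F2, Proc, Mbl2, Klkb1, Masp2, F13b, Plg and F11, with changes between -0.38 and -0.10. All 8 averaged under the breast median of all genes, as 24 of the 36 members did. Mbl2 was no longer called without the outlying arrays (-0.31 ± 0.15, adjusted p = 0.0531). Of 12 hepatocyte markers 5 fell in breast and 0 rose, and their summed level ran between 8.5 and 11.5 in tumor-bearing mice against 10.13 to 13.996 in controls. In controls this sum rested mainly on Rbp4 (12.09 ± 0.63, SD), with Alb at 8.30 ± 1.41. All 7 adipocyte markers fell (median change -4.14), all 8 epithelial markers rose (2.16), all 7 skeletal muscle markers fell (-2.83), and all 6 T cell markers fell (-1.48). A 3′ to 5′ ratio of the Gapdh control probes, a sign of RNA integrity, averaged 0.03 ± 0.45 (log2) in tumor-bearing mice, against 0.79 ± 0.78 in controls (SD, n = 25 each). The part of these differences in the members' changes was not tested.

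**Figure D5:**
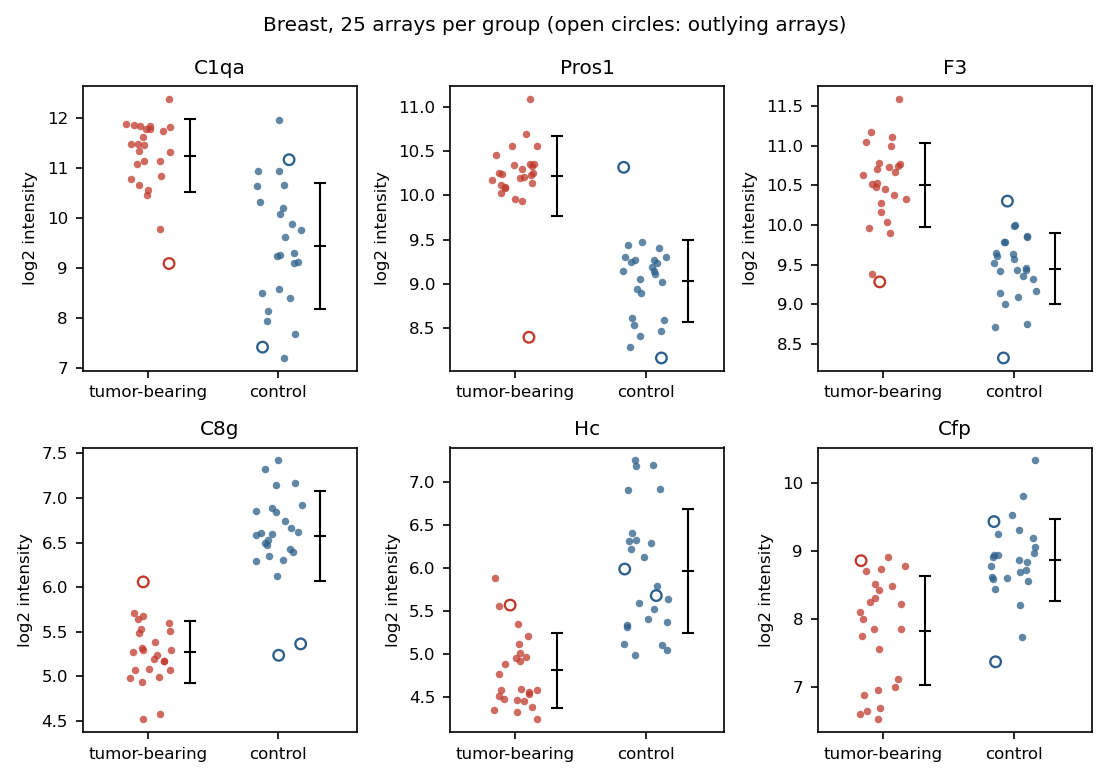
Log2 intensity (vertical axes) of C1qa, Pros1, F3, C8g, Hc and Cfp in 25 tumor-bearing and 25 control breast samples, with the mean and SD as bars and outlying arrays as open circles. The tumor-bearing samples are mostly higher for C1qa, Pros1 and F3 (medians of 11.46, 10.24 and 10.52, against 9.30, 9.15 and 9.46) and mostly lower for C8g, Hc and Cfp.

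Of other complement genes in breast 3 of 24 rose and 13 fell, with Itgax at 1.21 ± 0.14, Clu at 0.73 ± 0.11, Vtn at -2.03 ± 0.25, the carboxypeptidase N subunit Cpn2 at -1.84 ± 0.25 and C1s1, a C1 protease, at -1.46 ± 0.21. Of other coagulation genes 8 of 26 rose and 7 fell, with the protease inhibitor A2m at 3.13 ± 0.29, F2r at 1.47 ± 0.14, Lman1, a cargo receptor for factors V and VIII, at 1.66 ± 0.18, Tfpi2 at 2.30 ± 0.26 and Vwf, von Willebrand factor, at -1.90 ± 0.22. Of acute phase genes 7 of 20 rose and 5 fell, with Lbp at 2.68 ± 0.24, Saa3 at 2.76 ± 0.28, Cp at 1.49 ± 0.16, Orm1 at -4.69 ± 0.40 and Orm2 at -0.74 ± 0.07.

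In thymus 0 members were called with all pairs or without the outlying arrays by limma, and 8 had an unadjusted p under 0.05 in each case, all with positive changes. The smallest adjusted p with all pairs was 0.844, for C3ar1, which lay between 6.68 and 8.26 in tumor-bearing thymuses and between 6.54 and 7.86 in controls (0.29 ± 0.08, 20 of 25 pairs higher). Without the outlying arrays Pros1 had 0.48 ± 0.11 (adjusted p = 0.0756) and F5 0.75 ± 0.17 (adjusted p = 0.079). F13a1 lay between 10.998 and 11.83 in tumor-bearing thymuses and between 9.75 and 11.73 in controls (0.20 ± 0.08, adjusted p = 0.995). With all pairs 0 of the other complement, other coagulation and acute phase genes were called by limma, and 1 acute phase gene was higher without the outlying arrays, while the summed level of the hepatocyte markers ran between 10.51 and 14.99 in tumor-bearing thymuses and between 9.6 and 13.8 in controls.

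The spleen changes were set against those of thymus, the other lymphoid organ, in the linked pairs. The difference passed for 3 members more positive in spleen and 2 more positive in thymus, against 11.6% and 8.0% of all genes, and for 3 and 6 without the outlying arrays, against 16.2% and 13.4%. F13a1 differed by 2.20 ± 0.23 (24 of 25 pairs, adjusted p = 1.15e-07), C5ar1 by 1.15 ± 0.14 (23 pairs) and F10 by 0.89 ± 0.19 (20 pairs). Cfb (-0.87 ± 0.22) and C2 (-0.54 ± 0.16) were the 2 with a more positive change in thymus.

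Across tissues, 20 members were called in 1 tissue, 8 in 2 tissues and 4 in 3 tissues (Pros1, Cfi, Hc and F13a1), and 4 in none (F12, Fga, Fgb and Mbl1). Such counts were not made over all genes, of which 30.0% were called higher and 32.3% lower in breast alone. Pros1 and Cfi rose in breast, liver and spleen. The 3 members called in opposite directions were Hc, F13a1 and F11, each lower in breast and higher in liver. F11 lay near the floor in breast, with means of 3.82 and 3.92 in tumor-bearing and control mice (-0.10). Its breast call was lost after quantile normalization (-0.04, adjusted p = 0.357 by limma), with no block and in each ID series alone. The C1q chains moved together pair by pair in liver (r between 0.94 and 0.97, permutation p = 1e-05, adjusted p = 1.5e-05) and in spleen (r between 0.75 and 0.85, permutation p of 0.0001 or less, adjusted p of 0.00012 or less), over 23 pairs in each. Their rho lay between 0.94 and 0.96 in liver and between 0.66 and 0.81 in spleen (adjusted permutation p of 0.0013 or less), and without the 2 farthest pairs the lowest r was 0.53, for C1qa and C1qb in spleen.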

How the data were processed

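RNA from 5 tissues of 50 mice was hybridised to 250 Affymetrix mouse arrays. The deposited values are probe set intensities that the authors had summarised and normalized; the method is not given in the sources used here. Median intensities per tissue (25.2 in blood to 129.5 in thymus) differ, so tissues look normalized separately and were fitted separately. No counts lie behind these values, so the precision depends on the number of arrays.

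Intensities were raised to the 5th percentile of all values (11.35, or 3.5 on the log2 scale) and put on log2. Of 45101 probe sets, 34958 had 1 gene symbol (34754 updated by Entrez ID), 932 had several and 9211 were unnamed here. The probe set with the highest mean stood for a gene, which gave 18194 genes.

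Changes were tested two-sided in R 4.3.3 by limma 3.58.1, whose model held the matched pair as a block, with Benjamini-Hochberg adjustment. The pairs come from the label that names the age- and cage-matched mouse. The median correlation of the deviations of matched arrays was 0.31 for liver, 0.25 for thymus, 0.22 for blood, 0.15 for spleen and 0.08 for breast. Differences between tissues were fitted on within-pair differences, with mice linked by sample ID digits, which the labels do not state. Each mouse gave 1 array per tissue. Outlying arrays had a mean correlation below the lower quartile minus 3 interquartile ranges of their tissue. In simulated data with 200 changed genes, 94% of the log2 changes of 1 and 47% of those of 0.5 were recovered in liver among 18194 genes. Relations used 100000 permutations. Python 3.11.15, numpy 2.4.6, pandas 2.3.3, scipy 1.17.1 and matplotlib 3.10.9 were used. Start regions came from RefSeq (GRCm38.p6).

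The members and lists were chosen with earlier results of these data known. All members are named; of the 3 pathway lists, up to 5 called genes with the smallest p in a tissue, and of the marker lists at most 2 of high level. The alternatives were no block, no floor, quantile normalization, the mean of probe sets, no _x_at and _s_at probe sets, genes under the tissue median left out, outlying arrays left out, and each ID series alone, and 1 more was added after seeing the data.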

Additional observations from a re-analysis of the deposited data

Results flagged for a closer look

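The changes of 14 genes differed between liver and spleen in the linked pairs, by limma on the within-pair differences over all genes. The change was more positive in liver for C8a (2.82), Cfb (1.26), C9 (1.11), C8b (1.04), Fga (0.90), C2 (0.85), Hc (0.84), Fgb (0.76), F11 (0.65), Masp1 (0.51) and Pros1 (0.46), all as log2 differences. Without the outlying arrays these differences stayed called but were smaller, at 2.07, 0.82, 0.76, 0.77, 0.32, 0.51, 0.52, 0.34, 0.40, 0.20 and 0.25 in the same order of genes. Masp1 was not called without probe sets that can match several transcripts (0.23, adjusted p = 0.479 by limma). Fga was not called after quantile normalization (0.76, adjusted p = 0.0696 by limma). In each ID series alone Fga, Fgb, Pros1 and Masp1 were not called. In the earlier series F11, C9, C8b, Hc, Cfb and C2 were not called either. The change was more positive in spleen for F13a1 (-1.40), C5ar1 (-0.89) and F10 (-0.77). C5ar1 and F10 were not called in the earlier series alone.

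The changes of 5 genes differed between spleen and thymus. They were more positive in spleen for F13a1 (2.20), C5ar1 (1.15) and F10 (0.89), and more positive in thymus for Cfb (-0.87) and C2 (-0.54). F10, Cfb and C2 were not called in the earlier ID series alone.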

How the results depend on the processing

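Counts of called members moved by more than 1.5 times under several alternatives. Without outlying arrays the counts were 24 higher and 2 lower in liver, 13 and 7 in spleen, 17 and 7 for liver minus spleen, and 6 lower for spleen minus thymus. In the earlier ID series they were 7 higher and 4 lower in breast, 0 higher in liver, 5 lower in spleen, 1 and 1 for liver minus spleen, and 0 lower for spleen minus thymus. In that series without outlying arrays, an alternative chosen after seeing the data, they were 8 lower in breast. For spleen this alternative is the same fit, with 5 lower, as that series has no outlying spleen array. In the later series the counts were 26 higher and 1 lower in liver, 5 lower in blood and 1 higher in thymus. Quantile normalization gave 17 higher in liver, 3 lower in blood and 4 lower for spleen minus thymus. Leaving out genes under the tissue median gave 4 lower in breast, 4 higher in spleen, 3 lower in blood and 1 higher for spleen minus thymus, with fewer members tested. No floor gave 1 lower in blood, as did the mean of probe sets. The causes were not tested, and shares of all genes were taken only with all pairs and without the outlying arrays.

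Directions reversed without outlying arrays for Klkb1 in liver (-0.24) and for liver minus spleen (-0.24), for Fgg (0.18), C1qc (-0.14), Cfp (-0.34) and C8g (0.095) in spleen, for C8g in liver minus spleen (-0.19) and for Cfp in spleen minus thymus (-0.32). They also reversed for Klkb1 in liver in the later series (-0.19). In the earlier series, whose 10 spleen pairs hold no outlying array, they reversed for F2 (0.14), C1qc (-0.17) and Cfp (-0.35) in spleen.

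With no replicate block the calls lost were F11 (-0.10, adjusted p = 0.0576) and Plg (-0.15, adjusted p = 0.0897) in breast and C3ar1 in spleen (0.14, adjusted p = 0.252); the pairing changed no other member's call. Dim probe sets limit what breast, spleen and thymus can show: 24, 26 and 27 of the 36 members averaged under the tissue median there.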
